A study of Mus musculus with 5 samples.

Results

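The telomeric flank of the β-globin locus is the stretch of mouse chromosome 7 that lies between about 2 and 17.8 Mb from the locus on the side of the telomere. It was analysed here as 7660 of the 57765 chromosome 7 probes, and of the 385000 probes on the whole array. Members were chosen by their place in the probe order: probes were sorted by the running number in their identifiers, and ranks 38841 to 46500 were taken, counted from a viewpoint at rank 37873. The measured value behind this choice was the highest running mean on the chromosome, which sets the viewpoint. That peak had its centre between ranks 37865 and 37879 in the 5 samples and reached 60366 to 63239 intensity units. The position field of every probe was 0, so distances are estimates from an average of 60 kb per 29 probes, and neither genome coordinates nor gene names are given. Estimated from the identifier numbers instead, the flank ran from 2.57 to 16.5 Mb, so all distances given here are approximate. Whether the higher numbers run towards the telomere could not be checked in these files.

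4C, chromosome conformation capture on chip, finds DNA that lies close to a chosen site in the nucleus. Chromatin is fixed with formaldehyde, digested and religated, so that fragments which were close together become joined, and inverse PCR then picks out whatever was joined to the site for hybridisation to an array. Here the site, or viewpoint, was the promoter of β-major, the main adult β-globin gene of the mouse, and the cells came from fetal liver of 14.5 dpc embryos, the organ in which red blood cells form at that stage. The enzymes were HindIII and NlaIII, and each probe reports on a restriction fragment. A contacting region appears as a cluster of bright probes and not as a single bright probe.

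The study asked whether contacts of the active locus need ongoing transcription by RNA polymerase II. All 5 samples were cell suspensions kept in culture: 2 were left untreated for 5 h (A and B), 2 received α-amanitin for 5 h (A and B), and 1 received 100 µM DRB for 3 h. α-Amanitin blocks both initiation and elongation by RNA polymerase II, and DRB blocks elongation by inhibiting the kinase that phosphorylates Ser2 of the polymerase tail. The α-amanitin dose is 100 mg/ml in the sample labels, whereas the methods give the same figure in µg/ml. The paper calls its duplicates independent replicate experiments. No label ties a sample to a single embryo or says that the duplicates came from separate cultures, so p-values measure only the spread between these samples.

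Each of the 5 arrays was a different slide. The A samples were read in Cy3 and the B and DRB samples in Cy5, so an effect of the dye and one of the replicate cannot be told apart. The median intensity on chromosome 7 was 702 in α-amanitin A and ran from 474 to 513 in the other 4 samples. α-Amanitin A also stood apart in its bright probes: its 95th percentile on chromosome 7 was 3.67 times the median, against 16.1 to 19.9 times in the other 4. Several results that rest on this sample are therefore also given without it. Arrays have no read depth, and their number limits the precision. Neighbouring probes of the flank had log2 signals that correlated at 0.112 in DRB, 0.156 in α-amanitin A and 0.218 to 0.236 in the other 3 samples, a description over probes of a single array.

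To find contacting regions, a running mean of 29 probes was taken over the uncorrected intensity. The threshold of each sample was the lowest running mean at which a randomised chromosome 7 contributed under 5% as many windows as the data. This threshold was 6831 and 7034 intensity units in untreated A and B, 7822 and 6995 in α-amanitin A and B, and 7948 in DRB. At the near edge of the flank the signal was low, with first windows of 501 to 800 units against 1427 to 2861 in the last windows before it. At the far edge the last windows of the flank held 4253 to 6088 units, and the first windows beyond it 2426 to 4912 units.

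Among the 7632 windows that lie wholly inside the flank, 365 were above threshold in untreated A and 416 in untreated B, or 4.78% and 5.45%. The same shares over all 57737 windows of chromosome 7, viewpoint included, were 3.83% and 4.06%. In α-amanitin A 209 windows of the flank (2.74%) were above threshold and in α-amanitin B 380 (4.98%), beside 2.26% and 3.75% over the chromosome. The DRB sample had 165 such windows (2.16%), beside 2.02% over the chromosome. Untreated cells thus averaged 5.12% ± 0.47 (SD, n = 2) and α-amanitin treated cells 3.86% ± 1.58 (SD, n = 2). The α-amanitin pair lay on both sides of the untreated A value, and the difference of -1.26 percentage points was within the spread of the duplicates (exact permutation test, two-sided, p = 0.667, where the design cannot go below 0.333). Without α-amanitin A the α-amanitin value was 4.98%, between the untreated samples. DRB was the lowest of the 5, and its single sample gives no replicate check.

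Windows above threshold were scarcer on the flank than on its mirror image, the 7660 probes at the same ranks on the centromeric side, though by little. The share was 4.02% ± 1.47 on the telomeric side and 4.21% ± 1.51 on the centromeric side (SD, n = 5 samples). The within-sample difference of -0.19 percentage points was negative in 5 of 5 samples (exact sign-flip permutation test, two-sided, p = 0.0625, the smallest that 5 samples allow). At a false discovery rate below 0.01 the difference turned to 0.0839, so the direction depends on where the threshold is set. The mean intensity ran the other way: it was 4.48 times the chromosome 7 median on the telomeric flank and 4.22 times on the centromeric flank, higher on the telomeric side in 5 of 5 samples (exact p = 0.0625). Outside both the flank and the stretch around the viewpoint the share above threshold was 1.65% ± 0.60 (SD, n = 5), lower than on the flank in 5 of 5 samples by 2.38 percentage points (exact p = 0.0625).

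The signal did not fall off evenly with distance. In the 8 bins of equal probe number into which the flank was divided, the nearest, from about 2 to 3.98 Mb, held no window above threshold in any of the 5 samples. The corresponding bin on the centromeric side held 9.92% on average, with 7.53% in the lowest sample. The nearest telomeric bin also had the most absent identifier numbers, 33.8%, against 10.8% to 19.7% in the other telomeric bins. The part of missing probes in the low count was not tested. The next bin, from 3.98 to 5.96 Mb, was the highest of the flank: 13.6% of its windows were above threshold on average, and the samples ran from 7.74% to 19.7%. The farthest bin, from 15.9 to 17.8 Mb, came next with 8.68% (range 6.67% to 10.5%), and its mirror image held 0%. That mirror bin had the most absent identifier numbers of the centromeric side, 30.8%, against 19.7% in the farthest telomeric bin. The part of missing probes in this contrast was not tested either. On the flank no window between 7.95 and 9.93 Mb was above threshold in any sample. The same held for its mirror bin on the centromeric side, from 7.94 to 9.92 Mb.

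**Figure D1:**
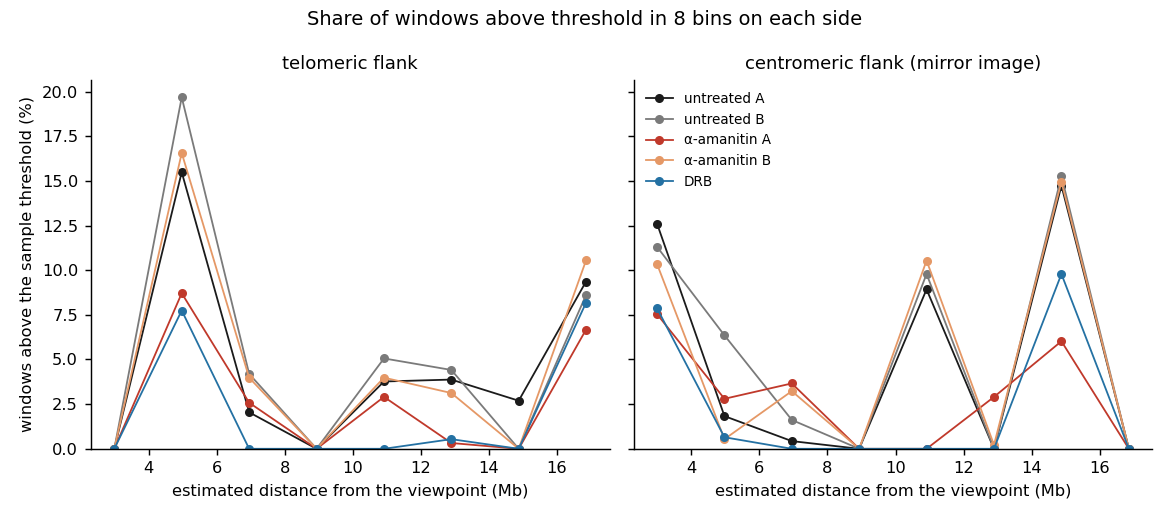
The percentage of windows above the sample threshold is plotted against the estimated distance from the viewpoint in Mb, for 8 bins on the telomeric flank (left) and 8 bins on its centromeric mirror image (right); each line is 1 of the 5 samples. On the left every sample starts at 0 in the nearest bin and is high in the next and in the farthest bin, the next bin being the highest in 4 samples and the farthest in DRB (8.18% against 7.74%).

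Windows above threshold in both duplicates are called double positive, as in the study. The untreated cells had 290 double positive windows on the flank (3.80%, against 2.97% of chromosome 7), and α-amanitin treated cells had 170 (2.23%, against 1.61%). 100 windows (1.31%, against 1.12% of chromosome 7) were above threshold in all 5 samples. Joining adjacent windows gave 17 untreated double positive regions. Of these, 11 held a window that was double positive after α-amanitin, 5 were above threshold in a single α-amanitin sample and 1 in neither. Without α-amanitin A, 15 of the 17 were above threshold in α-amanitin B, and without α-amanitin B, 12 were in α-amanitin A. The DRB sample was above threshold in 9 of the 17. When untreated B was left out there were 13 regions in untreated A alone, of which 7 were double positive in α-amanitin and 5 were above threshold in DRB. On the centromeric mirror image, with both untreated samples, 4 of 11 regions were double positive in α-amanitin and 5 were above threshold in DRB.

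Many of these 17 regions share probes. When windows with overlapping probes were joined, 7 regions were left, named U1 to U7 here in order of distance. Of the 7, 5 were double positive in α-amanitin, 1 (U6) was above threshold in α-amanitin B only and 1 (U3) in neither α-amanitin sample. DRB was above threshold in 5, and below it in U3 and U5. Joined in the same way, the 5 regions double positive in α-amanitin and the 5 regions called in DRB all held windows above threshold in both untreated samples. With adjacent windows joined alone, 9 of 12 α-amanitin regions and 7 of 7 DRB regions did. On the centromeric mirror image, with overlapping windows joined, 3 of 6 untreated regions were double positive in α-amanitin and 3 were above threshold in DRB.

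**Figure D2:**
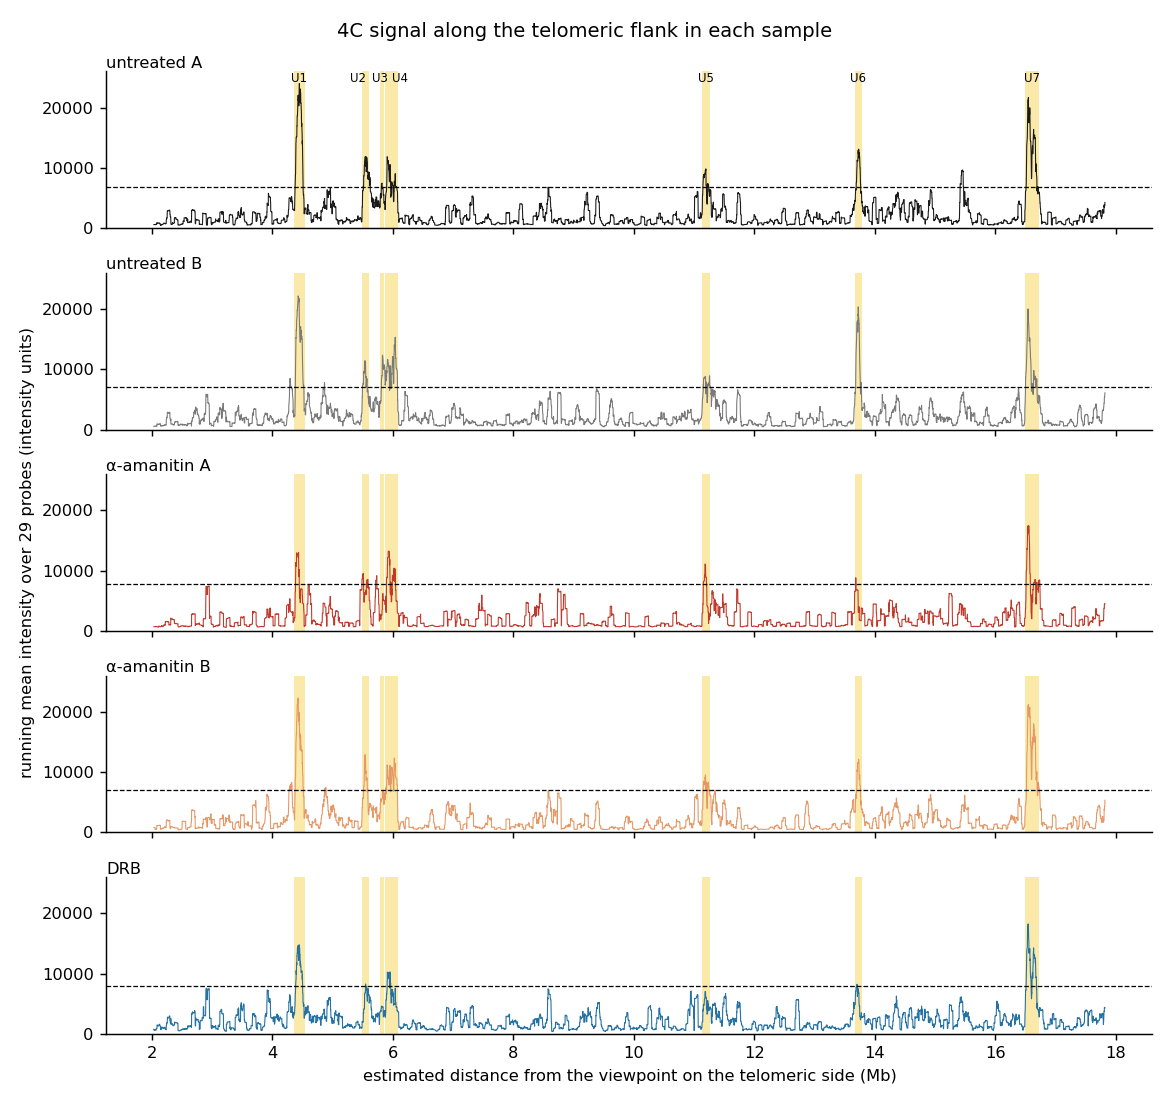
The running mean intensity over 29 probes is plotted against the estimated distance from the viewpoint in Mb for each of the 5 samples; the dashed line is the sample's threshold and the shaded bands are U1 to U7. The tallest peak stands in U1 in both untreated samples and α-amanitin B and in U7 in α-amanitin A and DRB, and the stretch before 4 Mb stays below the line in every sample.

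U1, the nearest region, covered ranks 39977 to 40065, about 184 kb at 4.44 Mb from the viewpoint, or 5.11 Mb if estimated from the identifier numbers. Its highest running mean was 24006 and 22182 units in untreated A and B, 13049 and 22318 units in α-amanitin A and B, and 14777 units in DRB. α-Amanitin B lay between the untreated samples, while α-amanitin A and DRB were lower than both. As a multiple of the threshold these peaks were 3.51, 3.15, 1.67, 3.19 and 1.86, so every sample was above it. All 61 windows of U1 were above threshold in both untreated samples and in α-amanitin B, 55 were in DRB and 29 in α-amanitin A.

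U7, the farthest region, was also prominent. It covered ranks 45841 to 45954, about 236 kb at 16.6 Mb, and peaked at 21674 and 20004 units in untreated A and B, 17462 and 21210 units in α-amanitin A and B, and 18233 units in DRB. In multiples of the threshold this was 3.17, 2.84, 2.23, 3.03 and 2.29. It was the region of the flank in which α-amanitin A and DRB reached their highest multiples. The peak window moved by at most 7 probes between samples. Of its 114 probes, 15 were among the brightest 5% of the chromosome in all 5 samples, the most in any of the 7 regions. In the other 6 regions this number ran from 1 to 7.

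Between these lay a group of 3 regions near 6 Mb. U2 covered ranks 40522 to 40581, about 124 kb at 5.54 Mb, and peaked at 1.74 and 1.63 times the threshold in untreated A and B. It reached 1.22 and 1.85 times the threshold in α-amanitin A and B, one on each side of the untreated samples, and 1.04 times in DRB, where a single window passed. U4, with ranks 40709 to 40812 and about 215 kb at 5.97 Mb, peaked at 1.73 and 2.18 in untreated, 1.69 and 1.77 in α-amanitin and 1.29 in DRB. The α-amanitin samples differed there by less than the untreated samples did. The peak windows of U4 lay up to 65 probes apart between samples, so these values do not describe a single place.

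U3, the shortest and weakest of the 7, lay next to U4 at 5.81 Mb, with ranks 40667 to 40700 and about 70.3 kb. Its peak was 1.09 and 1.27 times the threshold in untreated A and B, 0.45 and 0.79 times in α-amanitin A and B and 0.58 times in DRB. None of the 3 drug treated samples reached the threshold, and both α-amanitin samples were below both untreated samples. Only 6 windows were double positive in untreated cells, and the region was chosen for being above threshold there.

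U5 covered ranks 43250 to 43319, about 145 kb at 11.2 Mb. Here the α-amanitin peaks of 1.42 and 1.36 times the threshold lay within the untreated peaks of 1.44 and 1.25. DRB, at 0.88 times the threshold, had no window above it. In intensity units α-amanitin A was the highest of the 5 samples in this region, at 11108 against 8825 to 9827 in the untreated samples, and DRB the lowest at 7022.

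U6 covered ranks 44477 to 44538, about 128 kb at 13.7 Mb, and the samples differed most there. Its peak was 13107 and 20362 units in untreated A and B, 6839 and 12135 units in α-amanitin A and B, and 8207 units in DRB. These were 1.92, 2.89, 0.87, 1.73 and 1.03 times the thresholds. Both α-amanitin samples were below both untreated samples, α-amanitin B by little. In α-amanitin A the 3 brightest probes held 86.1% of the signal of the peak window, against 35.5% and 30.0% in the untreated samples, 39.7% in α-amanitin B and 65.5% in DRB. α-Amanitin A did pass at the edge of this place, at 1.13 times its threshold, in windows that were not double positive in untreated cells.

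**Figure D3:**
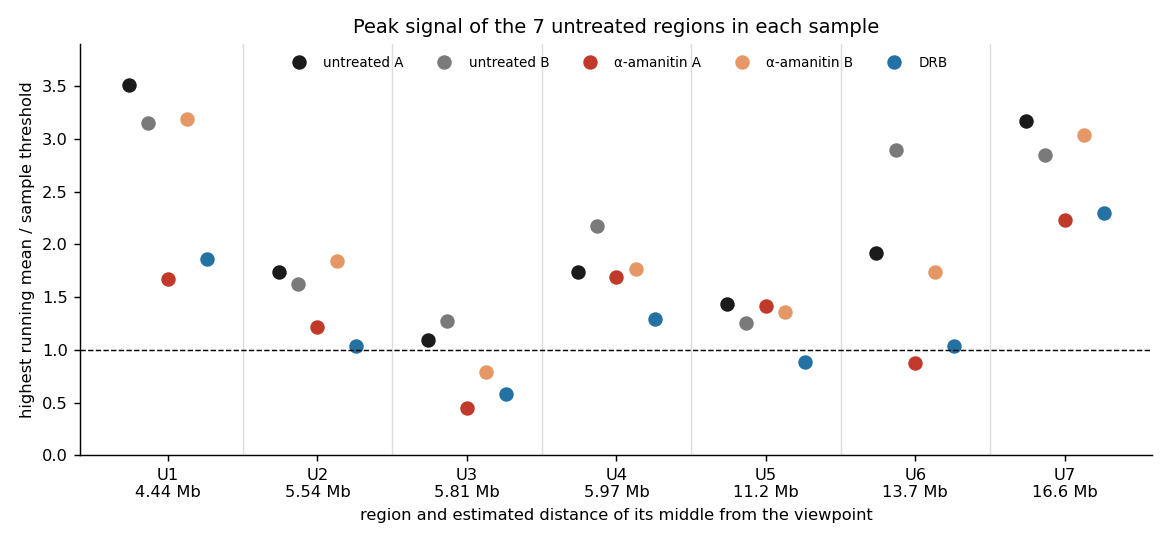
For each of the 7 regions (named with the estimated distance of their middle from the viewpoint) the highest running mean divided by the sample's own threshold is plotted, with 1 point for each of the 5 samples and a dashed line at the threshold. In each region the DRB point lies below both untreated points, and the α-amanitin B points lie among or near the untreated points except in U3 and U6.

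Across the 7 regions α-amanitin and untreated peaks overlapped in 5, U3 and U6 being the exceptions. This held for uncorrected intensity, for multiples of the threshold and after quantile normalization, but division by the chromosome 7 median raised the number of non-overlapping regions to 3 and averaging of log2 intensity raised it to 5, each time with α-amanitin lower. These counts stand beside 18.0% of non-overlapping windows of chromosome 7 and 15.9% of those of the flank. In these windows both α-amanitin samples were below both untreated samples after quantile normalization. α-Amanitin B by itself was below both untreated samples in 2 regions, between them in 4 and above them in 1, on the threshold scale. DRB was below both untreated samples in 7 of 7 regions on all 5 of these scales, beside 39.0% of non-overlapping windows of chromosome 7 and 47.7% of those of the flank after quantile normalization. Since the regions were selected on high untreated signal, a lower value in the remaining samples is in part built into these counts, and no test was made on them.

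Regions can also be chosen by the drug treated samples. The 5 double positive regions of the α-amanitin samples were selected on neither untreated nor DRB signal, though they lie at U1, U2, U4, U5 and U7, and the DRB peak in them was below both untreated peaks in 5 of 5, to be read beside the same 39.0% and 47.7%. At 16.6 Mb, for example, it was 18233 units against 21674 and 20004, and at 11.2 Mb it was 7022 units against 9827 and 8825. The 5 regions called in DRB were selected on neither untreated nor α-amanitin signal. Both α-amanitin samples were below both untreated samples in 1 of 5, at 13.7 Mb, to be read beside 18.0% of chromosome 7 and 15.9% of flank windows. α-Amanitin A alone was below both untreated samples in 4 of 5 and α-amanitin B in 2 of 5, or in 1 of 5 after quantile normalization. DRB cannot be told apart from its array here, since there was 1.

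**Figure D4:**
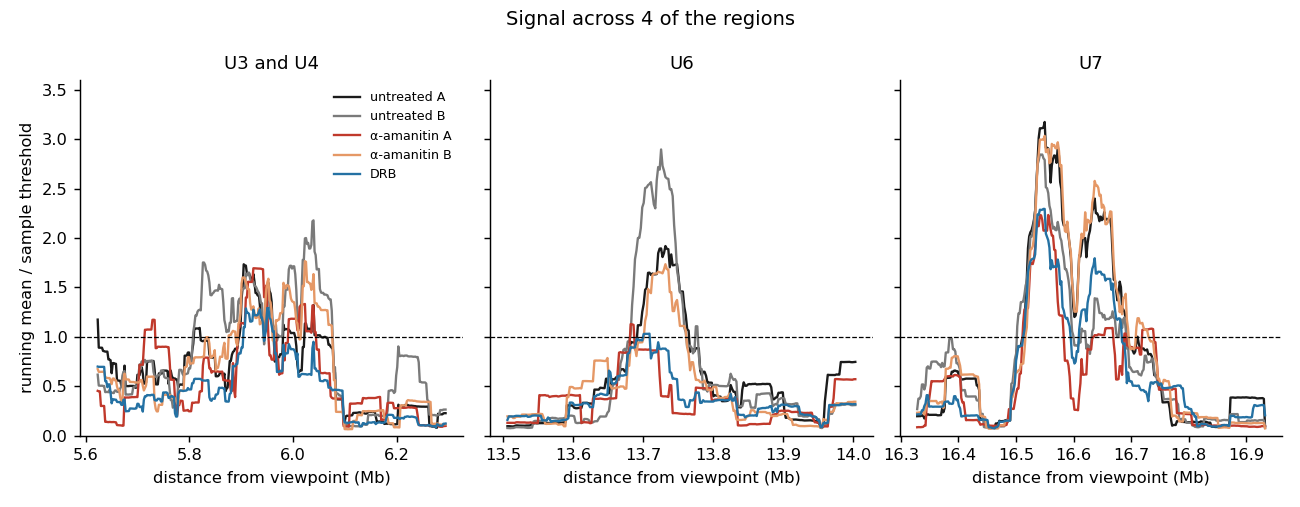
The running mean divided by the sample's threshold is plotted against the estimated distance from the viewpoint in Mb for the neighbouring U3 and U4 (left), U6 (middle) and U7 (right), with 1 line for each of the 5 samples and a dashed line at the threshold. At U6 the untreated and α-amanitin B lines rise to between 1.73 and 2.89 while DRB barely passes 1, and at U7 all lines peak at the same place.

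Each sample was also looked up in windows that another sample had called, and the shares found ranged widely. Of the 365 windows called in untreated A, 79.5% were above threshold in untreated B, 82.5% in α-amanitin B, 43.6% in α-amanitin A and 44.7% in DRB. The windows were thus above threshold in α-amanitin B about as often as in the untreated duplicate, and less often in α-amanitin A and DRB, the 2 samples with the fewest windows above threshold of their own. In the other direction, of the 165 windows called in DRB, 98.8% and 95.2% were above threshold in the untreated samples A and B, 61.8% and 97.0% in α-amanitin A and B. Of the 209 windows called in α-amanitin A, 76.1% and 83.7% were found in untreated A and B, 81.3% in α-amanitin B and 48.8% in DRB. Neighbouring windows share probes, so these shares describe a few places.

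Taking windows above threshold in any sample gave 9 places on the flank. The signal was above threshold in all 5 samples at 5 places and in 4 samples at 1, U5, where DRB was missing. A place at 4.88 Mb passed in untreated B (1.11 times the threshold) and α-amanitin B (1.07 times). Single samples accounted for the remaining 2: α-amanitin A at 5.72 Mb, with 1.17 times the threshold, and untreated A at 15.4 Mb, with 1.41 times. Neither was above threshold in the other sample of its pair, at 0.60 and 0.89 times.

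The 7 regions were chosen for their high untreated running means, so the brightness of their probes in the untreated samples restates that choice. Bright probes, those in the top 5% of chromosome 7 in their sample, made up 31.3% and 29.3% of the 533 probes of the 7 regions in the untreated samples, 28.7% in α-amanitin B, 20.6% in DRB and 18.2% in α-amanitin A. Outside the 7 regions the share was near 5% in every sample, from 4.77% to 5.29%. 33 of the 56 flank probes that were bright in all 5 samples lay in the 7 regions. Of the 1286 flank probes bright in any sample, 695 were bright in a single one.

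The order of the windows was shared beyond the regions. Over the 7632 windows of the flank, after quantile normalization, the Spearman correlation of the untreated duplicates was 0.656 and that of the α-amanitin duplicates 0.546. Untreated with α-amanitin samples averaged 0.602 ± 0.123 (SD over 4 pairs that share samples), from 0.476 for untreated A with α-amanitin A to 0.765 for untreated A with α-amanitin B. DRB correlated at 0.685 with untreated A and 0.555 with untreated B. Values between conditions thus lay on both sides of the value within untreated cells, and among the 6 pairs of untreated and α-amanitin samples the 3 that involve α-amanitin A were the lowest, at 0.476, 0.546 and 0.550. Without α-amanitin A the untreated with α-amanitin mean was 0.690. The untreated duplicates correlated at 0.680 on the centromeric mirror image and 0.669 on chromosome 7 outside the flank and the viewpoint stretch. Untreated with α-amanitin averaged 0.646 and 0.631 there, and untreated with DRB 0.694 and 0.650, beside 0.620 on the flank. Windows overlap and are not independent, so these are descriptions. When the windows touching U1 to U7 were left out, 6923 remained and the correlations were 0.567 for the untreated duplicates, 0.508 for untreated with α-amanitin and 0.536 for untreated with DRB.

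To test single places, the chromosome was divided into 1991 non-overlapping windows of 29 probes, 264 of them on the flank, and their log2 signals were compared with limma. For α-amanitin against untreated, 0 of the 264 windows and 0 of 1991 (0%) passed an adjusted p of 0.05, and 7 of the 264 had an unadjusted p below 0.05 (2.65%, against 3.57% of the chromosome). For DRB the counts were 0 of 264 and 0 of 1991 (0%), with 11 of the 264 at an unadjusted p below 0.05 (4.17%, against 5.37%). The standard error of the log2 fold change had a median of 0.55 for α-amanitin and 0.67 for DRB, so changes of the size seen in most windows were not detectable with these samples.

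In the flank the median log2 fold change was -0.08 for α-amanitin and -0.30 for DRB, beside -0.04 and -0.10 over the chromosome. Without α-amanitin A the α-amanitin median changed sign in the flank, to 0.026, beside -0.017 over the chromosome. Both α-amanitin samples were below both untreated samples in 15.9% of flank windows, against 18.0% of the chromosome, and above both in 10.6%, against 14.6%. DRB was below both untreated samples in 47.7% of flank windows, against 39.0% of the chromosome, and above both in 21.2%, against 28.2%. Dividing each array by its median in place of quantile normalization moved the chromosome median by -0.34 for α-amanitin and 0.31 for DRB, and the flank median of DRB then turned to 0.04. Relative to the chromosome, the DRB flank median stayed below it, by -0.20 with quantile normalization, -0.17 with division by the median and -0.08 with log2 intensity averaged. Over all 13 settings this value ran from -0.31 to -0.08, where the -0.31 was measured against the windows of all chromosomes. Against chromosome 7 the lowest value was -0.25, with windows of 59 probes. The relative α-amanitin flank median ran from -0.09, again against all chromosomes, to 0.04 over 14 settings. Against chromosome 7 its lowest value was -0.07, without α-amanitin B, so its direction was not stable. The mean log2 signal of the flank was 10.79 and 10.82 in the untreated samples, 10.61 and 10.83 in the α-amanitin samples and 10.49 in DRB. α-Amanitin and untreated values overlapped (exact permutation p = 1, where the smallest possible is 0.333).

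Of the non-overlapping windows, 18 lay wholly or mostly inside 1 of the 7 regions. Their log2 fold changes ran from -1.42 to 0.07 for α-amanitin, with 14 below 0, and from -1.67 to -0.20 for DRB, with 18 below 0. Over the chromosome 53.2% and 58.7% of windows were below 0, and over the flank 58.0% and 66.7%. The regions were chosen for high untreated signal, which pulls these values down, so they are a description and support no change.

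The 3 flank windows with the smallest p were taken from each limma comparison. For α-amanitin, a window at 10.2 Mb had log2 signals of 9.10 and 9.37 in untreated and 11.26 and 10.89 in α-amanitin, a change of 1.84 (standard error 0.48, adjusted p = 0.976). The groups did not overlap, but the signal stayed far below threshold in all samples, at most at 0.30 times. The next, at 13.1 Mb and 2.99 Mb, changed by -1.67 and 1.16, each with the same adjusted p. For DRB, the window with the smallest p lay at 5.51 Mb, inside U2, with log2 signals of 12.80 and 12.94 in untreated and 11.40 in DRB, a change of -1.47 (standard error 0.48, adjusted p = 0.830). Windows at 9.65 and 14.9 Mb changed by -2.36 and -1.86 in DRB, with the same adjusted p. α-Amanitin against DRB gave 0 of 264 flank windows and 0 of 1991 (0%) at an adjusted p of 0.05. An unadjusted p below 0.05 was found in 12 of the 264 (4.55%, against 5.52% of the chromosome). The 3 windows with the smallest p in this comparison had log2 differences, α-amanitin minus DRB, from -2.16 to 2.33 (adjusted p = 0.805 from limma for each). When log2 intensity was averaged instead, the 6 changes against untreated kept their signs but shrank, to 0.40, -0.32 and 0.24 for α-amanitin and to -0.87, -0.54 and -1.07 for DRB.

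**Figure D5:**
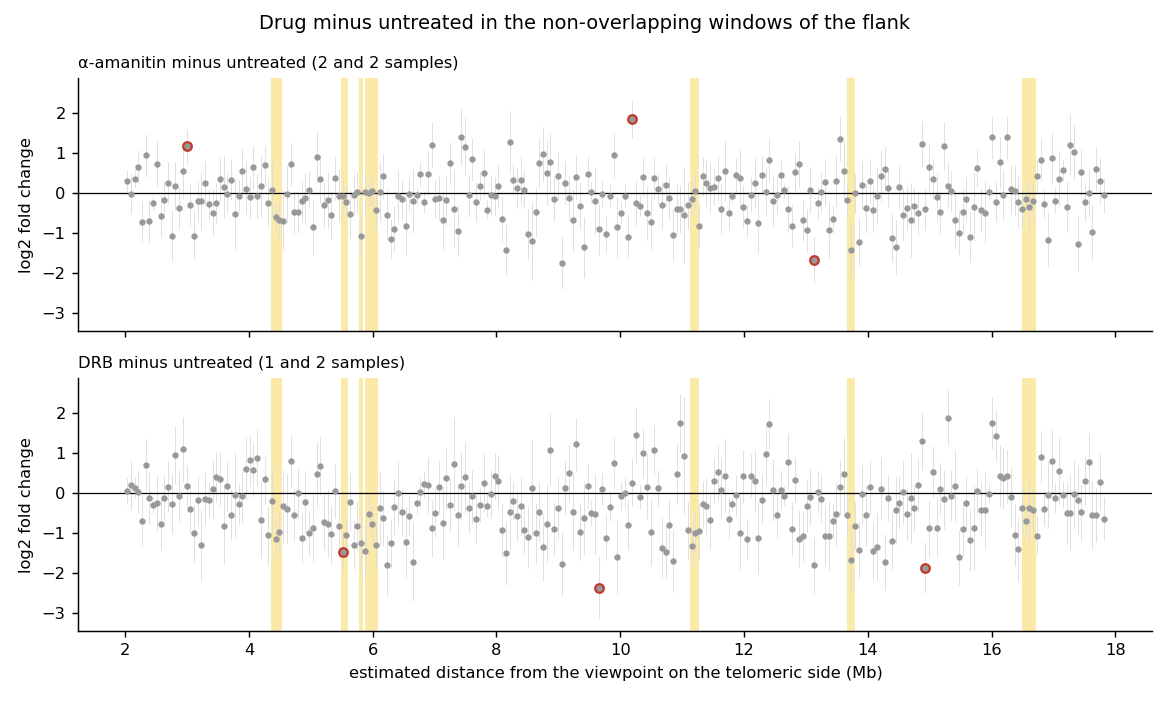
The log2 fold change of each of 264 non-overlapping windows of the flank is plotted against its estimated distance from the viewpoint in Mb. The top panel shows α-amanitin minus untreated and the bottom panel DRB minus untreated. Bars are standard errors from limma, shaded bands are U1 to U7 and larger red points are the 3 windows with the smallest p. The α-amanitin points scatter around a median of -0.08 and the DRB points around -0.30, and no window passed an adjusted p of 0.05.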

How the data were processed

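The authors deposited the raw probe intensity of a single channel of each of 5 NimbleGen arrays, read with NimbleScan 2.3.19, without background correction or normalization; the second sample on each slide was not analysed here. Samples were grouped from their titles. The members and named regions were chosen with earlier results of these data known. Running means of 29 probes used uncorrected intensity, and each threshold came from 100 seeded shuffles of chromosome 7, averaged, with the false discovery rate set below 0.05. Regions were named by a rule: all untreated double positive regions after joining overlapping windows, any further α-amanitin or DRB region, and the 3 windows with the smallest p per comparison. Correlations and limma 3.58.1 (R 4.3.3; lmFit, eBayes with trend, Benjamini-Hochberg adjustment over 1991 windows, 3 groups in a single fit) used intensity quantile normalized over all probes, so the single DRB sample was assumed to vary like the others. Python 3.11.15, numpy 2.4.6, scipy 1.17.1, pandas 2.3.3 and matplotlib 3.10.9 were used. Scripts were tested on simulated data. Alternatives varied the window, averaging, threshold, joining, normalization, pairing and samples.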

Additional observations from a re-analysis of the deposited data

How the results depend on the processing

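Of 120 recomputed values, 2 reversed and 22 moved by more than 1.5 times (counts) or by more than the spread between replicates or sample pairs (other values), or, for the DRB share, out of its 95% binomial interval; the telomeric minus centromeric difference was judged by its sign alone. The 17 untreated regions became 27 with a running median, 11 with windows of 59 probes, 7 with overlapping windows joined and 6 with gaps of up to 100 kb joined, and ran from 13 to 19 with a sample left out. The 11 double positive in α-amanitin became 5 with 59 probes, 7 with 15 probes, 6 at a false discovery rate below 0.01, 5 with overlapping windows joined, 5 with gaps joined, 9 (of 27) with a running median and 7 to 15 with a sample left out. The 9 above threshold in DRB became 5 under 59 probes and under both ways of joining, and 5 to 9 with an untreated sample left out; in both counts the lowest value came without untreated B. The untreated share of 5.12% became 8.12% with 59 probes, 8.20% with a running median and 3.81% at the stricter rate. The α-amanitin share became 6.31% with 59 probes and 2.38% at the stricter rate, and that of DRB 4.29% with 59 probes and 1.77% at the stricter rate. The telomeric minus centromeric difference was -0.050 with 59 probes and -0.49 with a running median, reversed to 0.0839 at the stricter rate, and was 2.38 with the rest of the chromosome as reference. The correlation of the untreated duplicates became 0.742 with log2 averaging and, chosen after seeing the data, 0.567 without U1 to U7. The cause was not tested, except that joining by construction merges regions. limma called 0 windows, on the flank or elsewhere, for either drug under every alternative that kept both untreated and both α-amanitin samples. Leaving out an untreated sample left 1 in its group, and some windows outside the flank were then called. Same-letter samples deviated in opposite directions (r = -0.31 over 264 windows). With 2 samples per group and α-amanitin A standing apart, this cannot decide whether letters pair samples. A replicate block left 0 windows called and gave a mean untreated with α-amanitin correlation of 0.546. The crossed pairing, added after seeing the data, called 0 windows for either drug and gave a correlation of 0.658. Precision was limited by 2 samples per group, 1 for DRB.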
